A study of Mus musculus with 120 samples.

Results

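The Lachnospiraceae are a family of anaerobic gut bacteria of the class Clostridia, and 2796 of the 13844 sequence variants (20.2%) counted in the 16S rRNA gene amplicons of this study carried the family name f__Lachnospiraceae in the authors' taxonomy. Membership was decided by that name and used no count. The members held 7.29% of all counts. Amplicons came from the contents of the cecum and the colon of C57BL/6N mice that were supplied at 10 weeks of age, acclimatised for 7 days and then kept for 42 days under a fixed light cycle, each mouse in a cage of its own. Antibiotics mice (labelled ABX) drank water with a mixture of broad-spectrum antibiotics whose agents the labels do not list, and chow mice (labelled CD) drank sterilised water; both ate the same irradiated pellets. Both arms thus share sterile feed, single housing and strain. The light cycles were LD0/24, LD8/16, LD12/12, LD16/8 and LD24/0, where the figures are hours of light and of dark, and LD12/12 is the usual laboratory cycle. Each of the 20 combinations of site, diet and light cycle had 6 libraries, except the antibiotics colon at LD8/16 with 5 and the chow cecum at LD8/16 with 7. The series asks how gut communities respond to light cycles with and without antibiotics.

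Members of the family ferment plant fibre and other carbohydrates in the large bowel to short-chain fatty acids, and many of them make butyrate, the main fuel of colon epithelial cells. They are strict anaerobes, many form spores, and in laboratory mice they are among the leading families of the cecum and colon. Most are sensitive to broad-spectrum antibiotics. Amplicon counts measure a share of the bacterial 16S genes in a library, so that fewer cells of a taxon and more cells of other taxa cannot be told apart.

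The antibiotics libraries held 59341 to 71113 counts in the cecum and 53336 to 68599 in the colon, and the chow libraries held 56537 to 73076 in the cecum and 39157 to 69739 in the colon. No library was a copy of another. Genera that are known from the mouth and are no members of the family (Neisseria, Haemophilus, Leptotrichia and Veillonella) set the 4 combinations of site and diet apart. Their summed share averaged 0.989% in the antibiotics cecum and 0.000818% in the antibiotics colon, against 0.0108% in the chow cecum and 0.832% in the chow colon. The labels name no extraction or sequencing batch, and the part of this pattern in the diet and site results was not tested. The labels also do not say whether a cecum and a colon library came from the same mouse, so the p-values describe the spread between these libraries.

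The 2796 variants fell into 54 named genera and an unclassified rest. The Lachnospiraceae NK4A136 group, a largely uncultured lineage common in mice, held 988 variants (35.3%), and 813 variants (29.1%) had no genus name. In 7 genera there was a single variant, among them the Ruminococcus gnavus group and Hungatella. Most variants were rare: 2079 (74.4%) were counted in only 1 of the 120 libraries, against 67.1% of all variants in the table. These rare variants made up 9.95% of the family's counts. At the other end, 78 variants (2.79%) were counted in over 20 libraries each and held 54.4% of the family's counts. The most widespread was in 78 libraries.

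With antibiotics, the summed Lachnospiraceae share was far lower at both sites. In the cecum it had a lowest value of 0.101%, a median of 0.410% and a highest value of 1.35% over 30 antibiotics libraries, against 1.20%, 10.8% and 42.7% over 31 chow libraries. In the colon the lowest, median and highest shares were 0.0544%, 0.413% and 2.87% in 29 antibiotics libraries and 1.88%, 10.0% and 55.2% in 30 chow libraries. The diets overlapped at their edges only: 1 of 30 antibiotics cecum libraries and 3 of 29 antibiotics colon libraries lay above the lowest chow library of their site. The share averaged 0.460 ± 0.277% in the antibiotics cecum (SD, n = 30) and 14.0 ± 11.7% in the chow cecum (SD, n = 31). In the colon it averaged 0.597 ± 0.722% with antibiotics (SD, n = 29) and 14.2 ± 12.9% on chow (SD, n = 30).

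Antibiotics against chow was tested with edgeR's quasi-likelihood test on the summed counts, with the total count as library size, light cycle as a factor and Benjamini-Hochberg adjustment over all families. The log2 fold change was -4.96 ± 0.37 in the cecum (SE, adjusted p = 4.72e-20) and -4.86 ± 0.38 in the colon (SE, adjusted p = 2.55e-18). An effect of diet was the rule among families, with 89.1% of all those tested past the threshold in the cecum and 74.1% in the colon. The related Oscillospiraceae changed by -5.24 in the cecum and -5.20 in the colon, and the Ruminococcaceae by -3.54 in the cecum and -3.65 in the colon (log2). When the library size left out 6 genera that expanded under antibiotics (Klebsiella, Pantoea, Enterobacter, Parabacteroides, Bacteroides and Enterococcus), the family's log2 fold change was -1.58 in the cecum and -1.46 in the colon, still past the threshold (adjusted p = 6.70e-06 and 5.10e-05 by edgeR). In the colon it was also smaller with TMMwsp factors (-2.85), DESeq2 (-2.90) and centred log-ratios (-2.86).

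**Figure D1:**
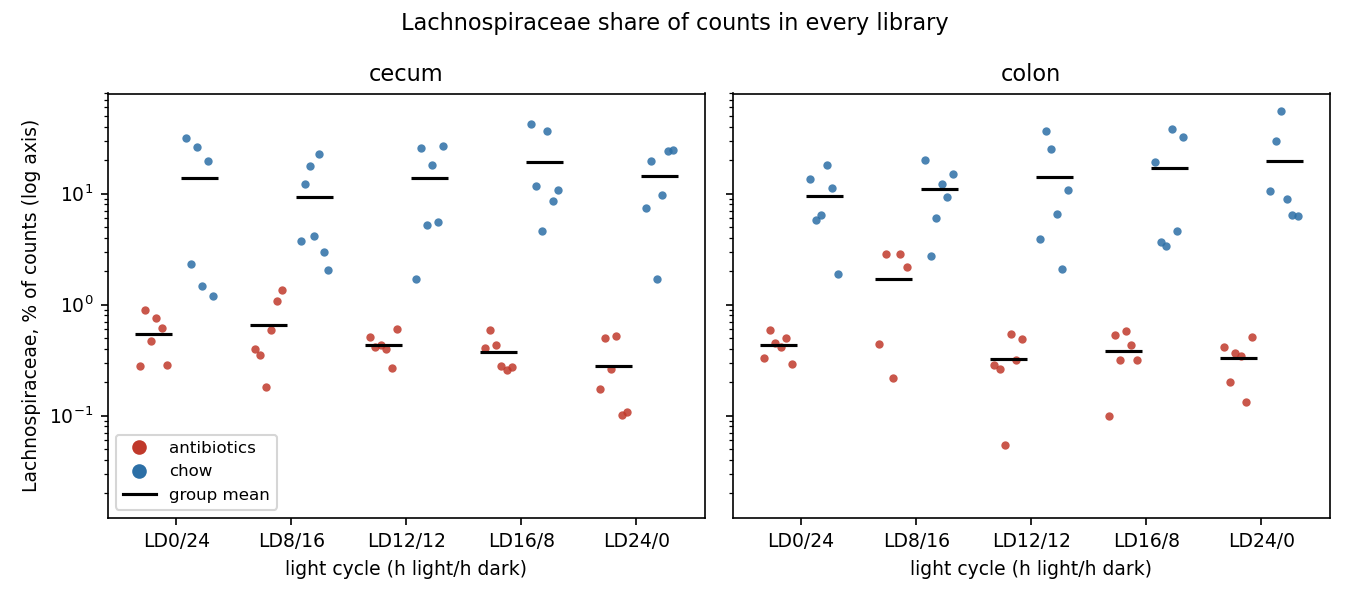
Share of counts assigned to Lachnospiraceae in every library, in percent on a log axis, by light cycle, for the cecum (left) and the colon (right). Points are libraries, with antibiotics left of chow in each light cycle, and black lines are group means. The antibiotics libraries lie between 0.0544% and 2.87% and the chow libraries between 1.20% and 55.2%. The 5 highest antibiotics libraries are all from LD8/16.

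The number of Lachnospiraceae variants per library was lower as well. In the cecum it had a lowest value of 7, a median of 20 and a highest value of 35 with antibiotics, against 18, 82 and 250 on chow. In the colon the lowest, median and highest numbers were 4, 19 and 32 with antibiotics and 41, 92.5 and 249 on chow. No antibiotics colon library reached the chow colon library with fewest variants. In the cecum 17 of 30 antibiotics libraries had more variants than the poorest chow library, and 2 of 31 chow libraries had fewer than the richest antibiotics library. Fewer family counts were drawn in antibiotics libraries, so the number expected in a draw of 100 Lachnospiraceae counts was also computed. It averaged 19.2 in the antibiotics cecum and 17.5 in the antibiotics colon, against 33.9 in the chow cecum and 36.2 in the chow colon. The draw left out 2 antibiotics cecum and 3 antibiotics colon libraries with under 100 family counts.

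**Figure D2:**
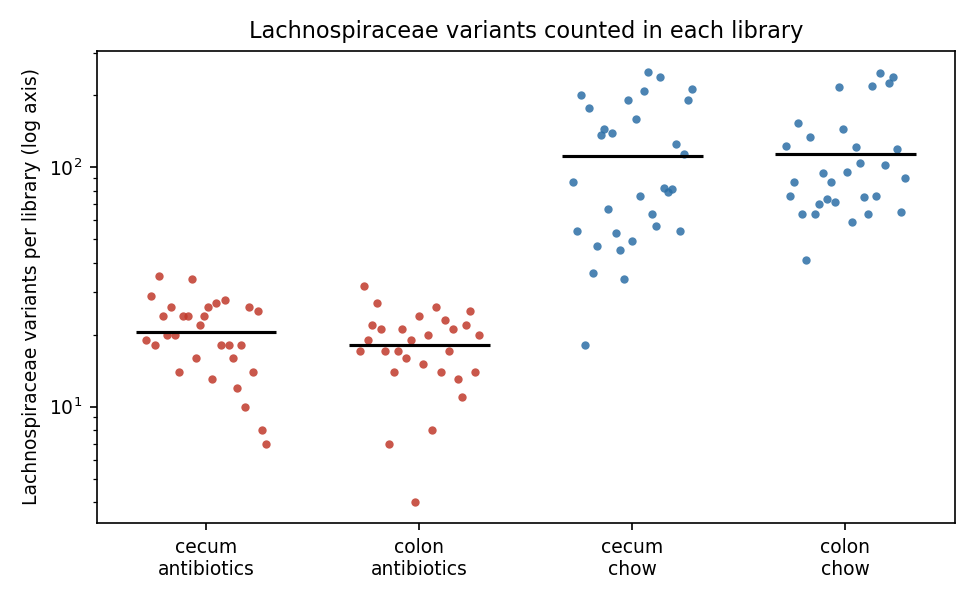
Number of Lachnospiraceae variants counted in each library (log axis) in the 4 combinations of site and diet; points are libraries and black lines are means. The antibiotics libraries hold 4 to 35 variants and the chow libraries 18 to 250.

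The variants left under antibiotics were mostly variants also counted on chow. Of 184 variants counted in the antibiotics cecum, 119 (64.7%) were also among the 1776 of the chow cecum, which is 6.70% of the chow set. Over the variants of all families these shares were 34.7% and 6.64%. In the colon 133 of 163 antibiotics variants (81.6%) were among the 1472 of the chow colon (9.04% of those), with 56.8% and 9.74% over all families. Over both sites 240 variants were counted with antibiotics and 2746 on chow, and 190 were counted with both, which is 79.2% of the antibiotics set and 6.92% of the chow set (53.5% and 9.08% over all families). The remaining 50 were counted with antibiotics only. Much of the family's signal in antibiotics libraries was of counts that were low against the same variant's highest count. Counts at or below 2% of the same variant's highest count in any library made up a mean of 36.9% of the family's counts in the antibiotics cecum and 42.7% in the antibiotics colon, against 3.10% in the chow cecum and 4.71% in the chow colon. Without them, an antibiotics library held a mean of 12.4 variants in the cecum and 10.3 in the colon, against 104 in the chow cecum and 103 in the chow colon. For variants that peak on chow, a fall with antibiotics by itself raises the part of counts below that limit. Whether such low counts are reads carried over between libraries was not tested.

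Summed over libraries, the make-up of the family's counts differed between the diets. The NK4A136 group held 39.9% of the family's counts in the antibiotics cecum and 35.9% in the antibiotics colon, against 53.5% in the chow cecum and 62.5% in the chow colon. The unclassified members held 8.23% and 6.89% in the antibiotics cecum and colon, against 24.5% and 14.0% in the chow cecum and colon. Robinsoniella, a genus with few described species and some isolates from human infections, held 10.2% in the antibiotics cecum and 41.5% in the antibiotics colon, against 0.769% in the chow cecum and 0.351% in the chow colon. Per library, its share of the family had a median of 0 with antibiotics at both sites, and a mean of 4.38% in the cecum and 11.4% in the colon. Its high counts with antibiotics (407 or more) were in 5 libraries, all of LD8/16. Their counts also lower the summed NK4A136 shares with antibiotics. The Ruminococcus gnavus group, whose namesake species feeds on mucin glycans, held 12.1% in the antibiotics cecum and 2.49% in the antibiotics colon, against 0.0263% and 0.109% in the chow cecum and colon.

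**Figure D3:**
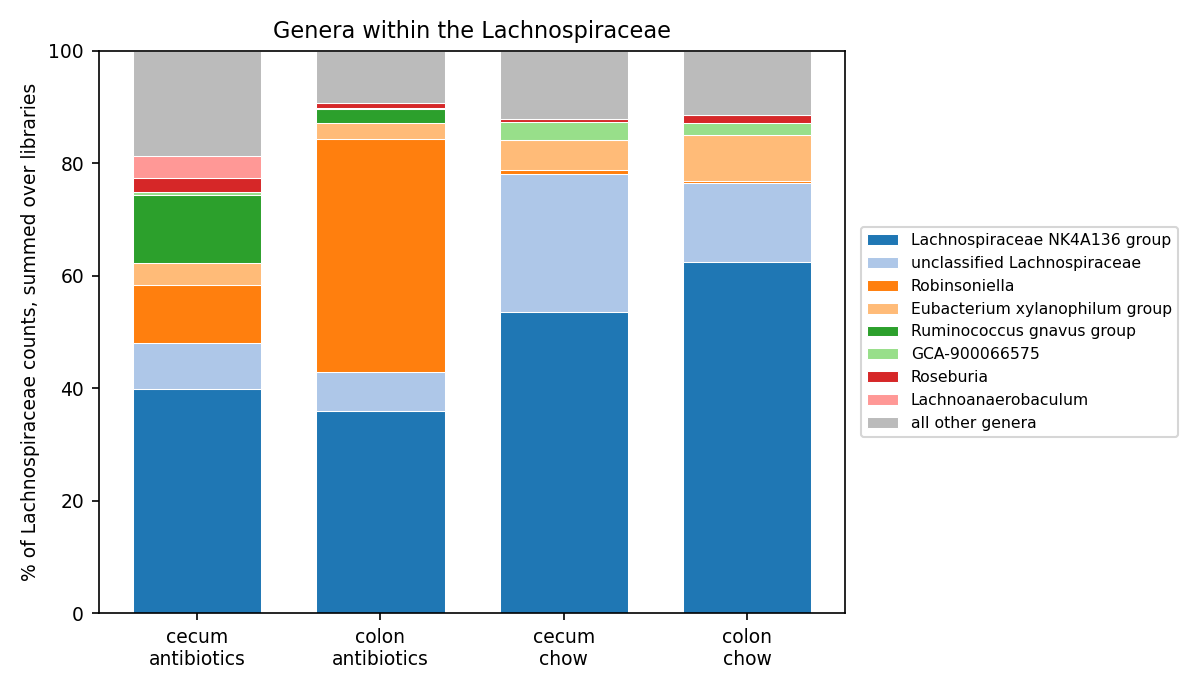
Share of each genus in the Lachnospiraceae counts, in percent, summed over the libraries of each combination of site and diet; genera that reach 2.5% in none of the 4 are joined in grey. Robinsoniella takes 41.5% of the family in the antibiotics colon and the Ruminococcus gnavus group 12.1% in the antibiotics cecum, while the NK4A136 group is the largest genus of both chow bars. The Robinsoniella counts of the antibiotics colon come mostly from libraries of LD8/16.

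Most genera of the family fell with antibiotics, and at both sites the members' median was below that of all genera. In the cecum 38 of the family's genera had the 3 counts in 5 libraries needed for a test, and 34 were past the threshold (adjusted p under 0.05 by edgeR, over all genera). Of these, 28 were lower and 6 higher with antibiotics. Among all 255 genera tested in the cecum, 92.2% were past the threshold, 58.4% lower and 33.7% higher. In the colon 36 of 40 were past it, all 36 lower, among 80.8% of all 261 genera (64% lower, 16.9% higher). The members' median log2 fold change was -4.17 in the cecum, with -2.94 for all genera there, and -4.56 in the colon, with -3.62 for all. Directions in the colon depended on the scaling. On centred log-ratios with limma, 17 of the family's genera were lower and 7 higher there, and the median of all genera was 0.33. The signs of 14 of the 36 turned on that scale. Of these, Anaerobium (0.85), Johnsonella (0.88), Marvinbryantia (0.96) and Murimonas (1.06) were past the threshold in the opposite direction (adjusted p = 0.0113, 0.00934, 0.0193 and 0.00228 by limma). Yet Anaerobium and Johnsonella had 0 counts in the antibiotics colon, Marvinbryantia 5 and Murimonas 7, against 48, 42, 71 and 34 in the chow colon. On that scale a count of 0 enters as 0.5 set against the library's own mean over genera, so these are not rises in counts. With TMMwsp factors or DESeq2, 2 of the family's genera were higher in the colon. In the cecum 18 were lower and 8 higher when the library size left out the 6 expanded genera.

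Within the mouse-gut and uncultured groups, 10 of 10 tested genera fell in the cecum (58.4% of all genera were lower) and 11 of 11 in the colon (64% of all). Their median log2 fold change was -5.84 in the cecum (all genera -2.94) and -5.29 in the colon (all genera -3.62). On centred log-ratios the colon signs of A2 (0.02), the FCS020 group (0.39) and the NK4B4 group (0.59) turned. None of these was past the threshold (adjusted p = 0.959, 0.312 and 0.181 by limma). In counts, the antibiotics colon held 4 of A2 and 0 of both groups, against 131, 93 and 216 in the chow colon. The NK4A136 group had a lowest share of 0.0235%, a median of 0.143% and a highest of 0.449% in the antibiotics cecum, against 0.129%, 4.09% and 34.2% in the chow cecum. In the colon the lowest, median and highest were 0.0225%, 0.189% and 0.368% with antibiotics and 1.21%, 5.06% and 50.4% on chow. The ranges did not overlap in the colon. In the cecum they overlapped, and the antibiotics median (0.143%) lay above the lowest chow share (0.129%). The NK4A136 log2 fold change was -5.29 ± 0.46 in the cecum (SE, adjusted p = 1.33e-16 by edgeR) and -5.27 ± 0.38 in the colon (SE, adjusted p = 3.73e-20 by edgeR). The unclassified members averaged 0.0381% in the antibiotics cecum and 3.42% in the chow cecum, a log2 fold change of -6.39 ± 0.55 (SE). Colon means were 0.0414% with antibiotics and 1.98% on chow, with -5.50 ± 0.48 (SE).

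Acetatifactor, named after an acetate-forming isolate from the mouse cecum, averaged 0.000396% in the antibiotics cecum and 0.288% in the chow cecum, and changed by -9.04 ± 0.89 (log2, SE). Its colon means were 0.000397% with antibiotics and 0.0619% on chow, and it changed there by -6.87 ± 0.70 (log2, SE). The lineage GCA-900066575, which carries a genome's number as its name, changed by -7.47 ± 0.87 in the cecum and -7.46 ± 0.80 in the colon (log2, SE). It was counted in 7 of 30 antibiotics cecum and 4 of 29 antibiotics colon libraries, against 29 of 31 and 28 of 30 on chow in the cecum and colon. Lachnospiraceae UCG-001 changed by -7.85 in the cecum and -6.57 in the colon, and UCG-006 by -5.18 and -5.10 (log2). A2 had no count in 30 antibiotics cecum libraries and 676 counts in the chow cecum. Against a floor of 3 counts over the group, which all such bounds here use, it was at least 223-fold lower with antibiotics. In the colon A2 changed by -4.11 ± 0.78 (log2, SE). Kineothrix, whose described species makes butyrate, had no count in the antibiotics colon and 1934 counts in the chow colon, so it was at least 629-fold lower. In the cecum it had 44 counts with antibiotics and 1367 on chow, and changed by -4.80 ± 0.94 (log2, SE).

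Of 13 listed butyrate producers of the family, 9 were detected and 7 could be tested. In the cecum 4 fell and 3 were not past the threshold, with a median of -3.71 (all genera -2.94, 58.4% of them lower). In the colon 5 fell and 2 were not past it, with a median of -3.62 (all genera -3.62, 64% of them lower). The Eubacterium xylanophilum group was the most abundant of them, with 0.0181 ± 0.0163% in the antibiotics cecum and 0.755 ± 1.38% in the chow cecum (SD), and a log2 fold change of -5.24 ± 0.76 (SE) there. Its colon means were 0.0167 ± 0.0118% with antibiotics and 1.15 ± 1.35% on chow (SD), with a log2 fold change of -5.90 ± 0.61 (SE). Roseburia, a flagellated butyrate producer, averaged 0.0120% in the antibiotics cecum and 0.0985% in the chow cecum, with a log2 fold change of -3.71 ± 0.87 (SE, adjusted p = 7.47e-05 by edgeR). Its colon means were 0.00503% with antibiotics and 0.202% on chow (-5.28 ± 0.84). Anaerostipes, which makes butyrate from lactate and acetate, had no count in the antibiotics cecum and 619 in the chow cecum, at least 204-fold lower. In the colon it changed by -4.07 ± 0.96 (log2, SE), a sign that turned to 0.41 on centred log-ratios. Coprococcus changed by -5.01 in the cecum and -3.62 in the colon (log2). Agathobacter, the genus of the former Eubacterium rectale, did not pass the test at either site, with -0.57 ± 1.09 in the cecum and 0.82 ± 0.96 in the colon (log2, SE). It averaged 0.00653% in the antibiotics cecum and 0.00532% in the chow cecum, and 0.0125% in the antibiotics colon and 0.00851% in the chow colon. The E. ventriosum group was not past the threshold at either site, nor was Lachnospira in the cecum. In the colon Lachnospira changed by -2.07 ± 0.81 (log2, SE), and by 0.66 on centred log-ratios.

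For comparison, the 8 listed butyrate producers outside the family had 9 tested entries, because 1 name stood under 2 families. In the cecum 2 of these rose, 6 fell and 1 was not past the threshold, where 33.7% of all genera were higher and 58.4% lower. In the colon 1 rose, 6 fell and 2 were not past it, where 16.9% of all were higher and 64% lower.

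All 4 genera listed for acetate, formate and hydrogen metabolism fell at both sites: Blautia and Marvinbryantia, known as acetogens or relatives of them, and Dorea and Fusicatenibacter, which ferment sugars. Among all genera 58.4% were lower in the cecum and 64% in the colon. The list's median log2 fold change was -2.82 in the cecum (all genera -2.94) and -3.10 in the colon (all genera -3.62). Blautia averaged 0.00884% in the antibiotics cecum and 0.0269% in the chow cecum, with -2.66 ± 0.81 (log2, SE), and 0.00166% in the antibiotics colon and 0.0159% in the chow colon, with -3.54 ± 0.91. Dorea changed by -2.61 ± 0.95 in the cecum and -3.64 ± 1.73 in the colon (log2, SE). All 4 are scarce, and their signs turned with the scaling. In the cecum Blautia came to 0.77 and Dorea to 1.05 when the library size left out the 6 expanded genera. In the colon Dorea came to 0.79, Fusicatenibacter to 0.42 and Marvinbryantia to 0.96 on centred log-ratios, and Marvinbryantia to 0.14 with DESeq2. Blautia kept its sign in the colon.

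Among other abundant genera, Lachnoclostridium changed by -4.04 ± 0.78 in the cecum and -5.02 ± 0.58 in the colon, and Anaerotignum by -5.52 ± 0.60 and -5.01 ± 0.57 (log2, SE). Anaerotignum was in every chow library, with 0.267 ± 0.163% in the cecum and 0.254 ± 0.214% in the colon (SD). With antibiotics it was in 16 of 30 cecum and 17 of 29 colon libraries. Tyzzerella changed by -4.09 in the cecum and -4.60 in the colon, and the Eubacterium ruminantium group by -5.13 and -5.27 (log2).

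**Figure D4:**
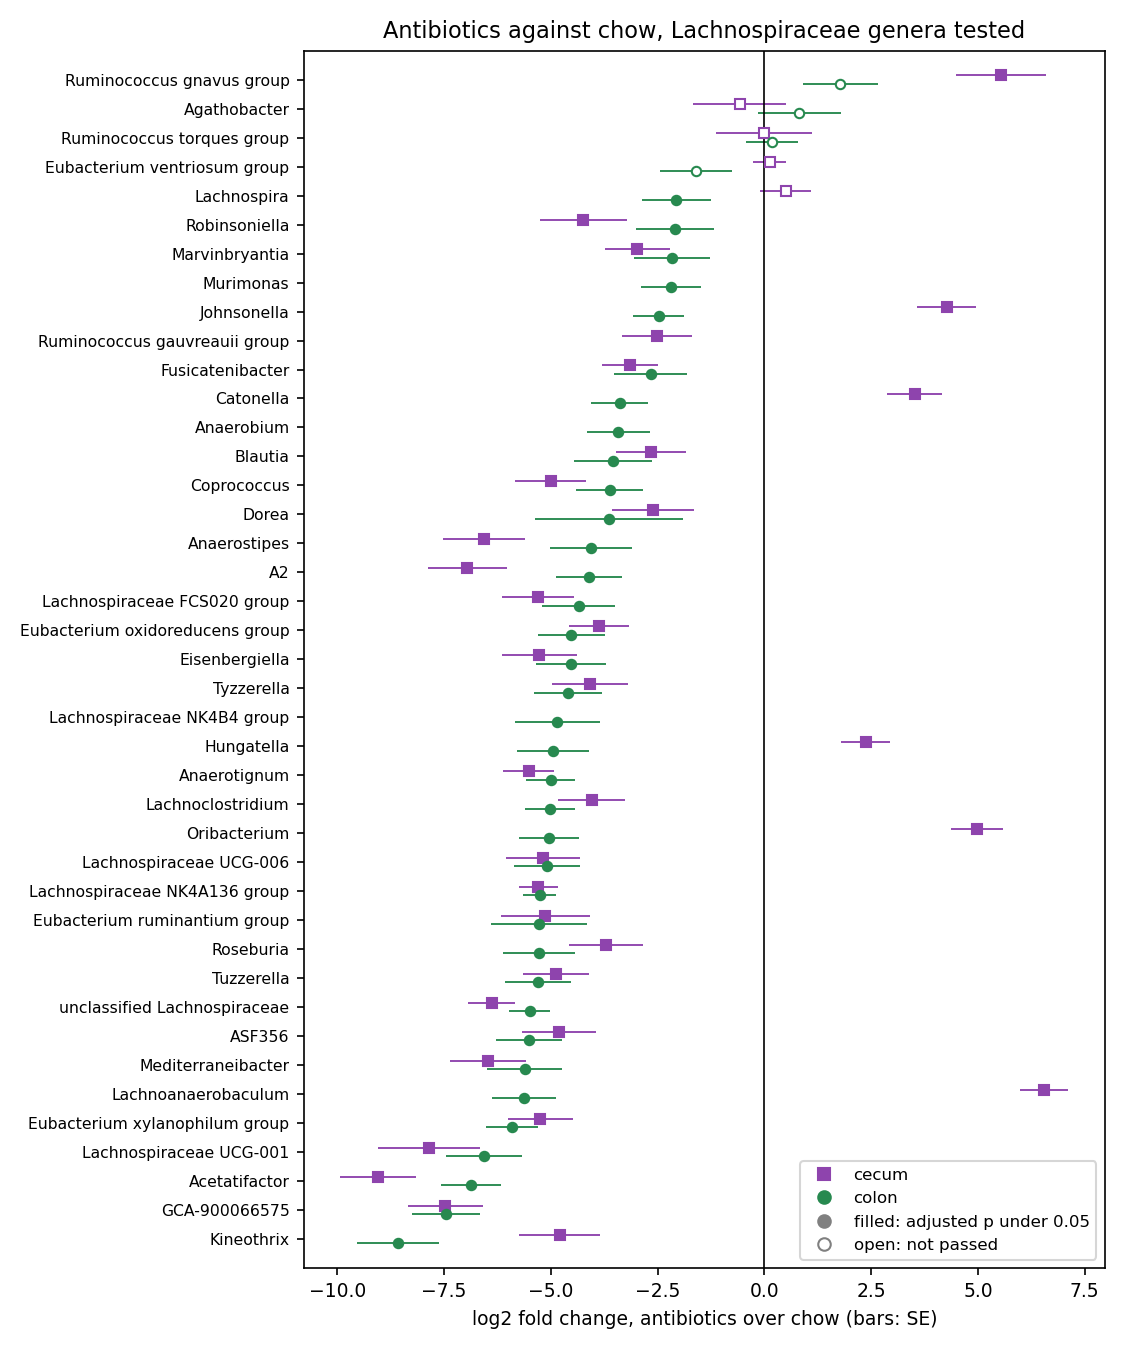
Log2 fold change of antibiotics over chow for each Lachnospiraceae genus tested, from edgeR, with SE bars; squares are the cecum, circles the colon, and filled symbols have an adjusted p under 0.05. Fitted values of genera with no count in 1 of the diets depend on the prior count and are no bound. In the cecum 6 genera lie to the right of 0 with filled symbols, led by Lachnoanaerobaculum and the Ruminococcus gnavus group; in the colon none does.

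The 6 genera higher with antibiotics in the cecum were the Ruminococcus gnavus group, Lachnoanaerobaculum, Oribacterium, Johnsonella, Catonella and Hungatella. The R. gnavus group, here a single variant, had 10 to 83 counts in the 21 of 30 antibiotics cecum libraries that held it, and 8 to 34 in 5 of 31 chow cecum libraries. It averaged 0.0553 ± 0.0431% in the antibiotics cecum and 0.00371 ± 0.0110% in the chow cecum (SD), and rose by 5.55 ± 1.05 on the log2 scale (SE, adjusted p = 2.30e-06 by edgeR). Its colon means were 0.0146 ± 0.0138% with antibiotics and 0.0151 ± 0.0249% on chow (SD), and the test was not passed (1.78 ± 0.87, adjusted p = 0.0550 by edgeR). The difference between the sites in this effect was itself past the threshold, at 3.95 ± 1.00 (log2, cecum minus colon, adjusted p = 0.000464 by edgeR). Of the other mucin glycan users listed, Tyzzerella fell at both sites and the Ruminococcus torques group was not past the threshold at either.

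The other 5 were present in small counts. Lachnoanaerobaculum, Oribacterium, Johnsonella and Catonella are known from the human mouth, and with Stomatobaculum they were summed as mouth-associated members of the family. A count of any of the 5 was found in 28 of 30 antibiotics cecum libraries (735 counts, at most 41 in a library) and in 0 of 29 antibiotics colon libraries. On chow it was found in 2 of 31 cecum libraries (5 counts) and in 20 of 30 colon libraries (518 counts, at most 48). They thus followed the same split as Neisseria, Haemophilus, Leptotrichia and Veillonella: all 28 and all 20 of these libraries also held counts of those. The 2 chow cecum libraries with a mouth-associated member held none of those genera. Conversely, those genera were counted in 9 chow cecum and 4 antibiotics colon libraries, none of which held a mouth-associated member. Lachnoanaerobaculum was at least 119-fold higher with antibiotics in the cecum and at least 81.4-fold lower in the colon. Hungatella, a genus with isolates from human blood and stool and here 1 variant, was in 5 antibiotics cecum libraries (123 counts) and 11 chow colon libraries (250 counts), and in none of the antibiotics colon or chow cecum libraries. Of the 10 genera listed as opportunists, 7 were tested, and in the cecum 4 rose (Catonella, Hungatella, Lachnoanaerobaculum and Oribacterium) and 3 fell, where 33.7% of all genera were higher and 58.4% lower. In the colon the fits of all 7 were negative and past the threshold, where 64% of all genera were lower. Robinsoniella was among them, although its mean share was higher with antibiotics. Catonella, with no count in the antibiotics colon, came to 0.52 on centred log-ratios (adjusted p = 0.117 by limma).

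Tested as an interaction over all libraries, the effect of antibiotics differed between the cecum and the colon for 12 of 45 of the family's genera, with 8 more positive in the cecum and 4 more negative. Among all 325 genera tested the shares were 42.5%, 31.1% and 11.4%. The split turned to 7 positive and 11 negative with TMMwsp factors, and to 6 and 11 on centred log-ratios. Kineothrix differed by 4.16 ± 0.98, Anaerostipes by -4.20 ± 1.05 and A2 by -2.84 ± 0.89 (log2, SE, cecum minus colon). Each of the 3 has no count in the antibiotics libraries of 1 site, so these fitted sizes depend on the prior count.

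A difference between cecum and colon in the family's share was not detected with edgeR. The log2 fold change of cecum over colon was -0.15 ± 0.24 with antibiotics (SE, adjusted p = 0.687 by edgeR, with 48.2% of all families past the threshold) and 0.01 ± 0.34 on chow (SE, adjusted p = 0.991, with 51.8%). This call changed with the scaling. With antibiotics it was -0.76 with TMMwsp factors, -0.53 with DESeq2 and -0.66 on centred log-ratios (adjusted p = 0.0147, 0.0357 and 0.0150). On chow it was 0.98 with DESeq2 and 1.07 on centred log-ratios (adjusted p = 0.00539 and 0.0116).

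Between sites, 9 of the 28 genera tested with antibiotics differed, 8 higher and 1 lower in the cecum, against 46.3% of all genera (25.9% higher, 20.4% lower). With TMMwsp factors the split was 7 higher and 4 lower, and on centred log-ratios 5 and 4. Lachnoanaerobaculum, Oribacterium, Johnsonella and Catonella were among the genera higher in the cecum with antibiotics and among those lower in the cecum on chow. Lachnoanaerobaculum was at least 107-fold higher in the antibiotics cecum than in the antibiotics colon and Kineothrix at least 13.3-fold higher. The R. gnavus group was higher by 2.06 ± 0.50 and Blautia by 2.09 ± 0.86 (log2, SE). Anaerostipes was the genus that was lower, with no count in the antibiotics cecum and 53 in the antibiotics colon, at least 19.5-fold. On chow 11 of 44 genera differed, 4 higher and 7 lower in the cecum, against 43.6% of all genera (13.6% higher, 30% lower). That split turned to 9 higher and 5 lower with TMMwsp factors, 7 and 3 with DESeq2 and 11 and 3 on centred log-ratios. On chow Acetatifactor was higher in the cecum by 2.12 ± 0.64 and A2 by 2.04 ± 0.81 (log2, SE). The R. gnavus group was lower there, with a log2 fold change of -2.27 ± 0.70 (SE), and Lachnoanaerobaculum and Hungatella were each at least 90.9-fold lower. The chow cecum and the chow colon shared 502 variants, which is 28.3% of the 1776 of the cecum and 34.1% of the 1472 of the colon. Over all families these shares were 32.4% and 38.2%.

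Robinsoniella reached the highest share of any genus of the family in single antibiotics libraries, all of a single light cycle. In the antibiotics colon at LD8/16 the 5 libraries had 5, 1516, 8, 1755 and 1115 Robinsoniella counts, which is 0.00849%, 2.71%, 0.0128%, 2.65% and 1.71% of their totals. In the antibiotics cecum at LD8/16 the 6 libraries had 11, 0, 4, 6, 407 and 481 counts, with 0.624% and 0.723% in the highest pair. High counts were thus confined to 3 of 5 colon and 2 of 6 cecum libraries of LD8/16. All other 54 antibiotics libraries had at most 11 counts, and 19 of them had any. In the antibiotics colon at LD12/12 the highest of 6 libraries had 9 counts, and in the antibiotics cecum at LD12/12 it had 4.

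At LD8/16 against LD12/12, Robinsoniella was higher by 6.88 ± 1.78 in the antibiotics cecum (log2, SE, adjusted p = 0.0141 by edgeR) and by 8.21 ± 1.79 in the antibiotics colon (adjusted p = 0.00279). Leaving out any 1 library kept the adjusted p at or below 0.0347 in the cecum and 0.00931 in the colon. With the replicate number as a block, the values were 5.88 (adjusted p = 0.132) and 7.45 (adjusted p = 0.0881), both no longer past the threshold. In the 5 high libraries Robinsoniella held 57.6% and 53.6% of the family's counts in the cecum and 94.5%, 93.6% and 78.9% in the colon. Without Robinsoniella, the family averaged 0.287 ± 0.146% in the antibiotics colon at LD8/16 and 0.322 ± 0.182% at LD12/12 (SD), over 5 and 6 libraries, a difference that was not tested.

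The 5 libraries shared the same pair of variants in a nearly fixed proportion. The more abundant variant, with no species name, had 349 and 413 counts in the cecum libraries and 1296, 1429 and 944 in the colon libraries. The second had 58 and 68, and 220, 281 and 151. The ratio of the first to the second was 6.02 and 6.07 in the cecum and 5.89, 5.09 and 6.25 in the colon. The first variant was counted in 23 of 59 antibiotics libraries and in 9 of 61 chow libraries, all 9 from the colon and with at most 9 counts. A further variant, labelled Robinsoniella sp., was the main one on chow. It was counted in 2 of 59 antibiotics libraries (at most 3 counts) and 39 of 61 chow libraries (2510 counts, at most 814).

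**Figure D5:**
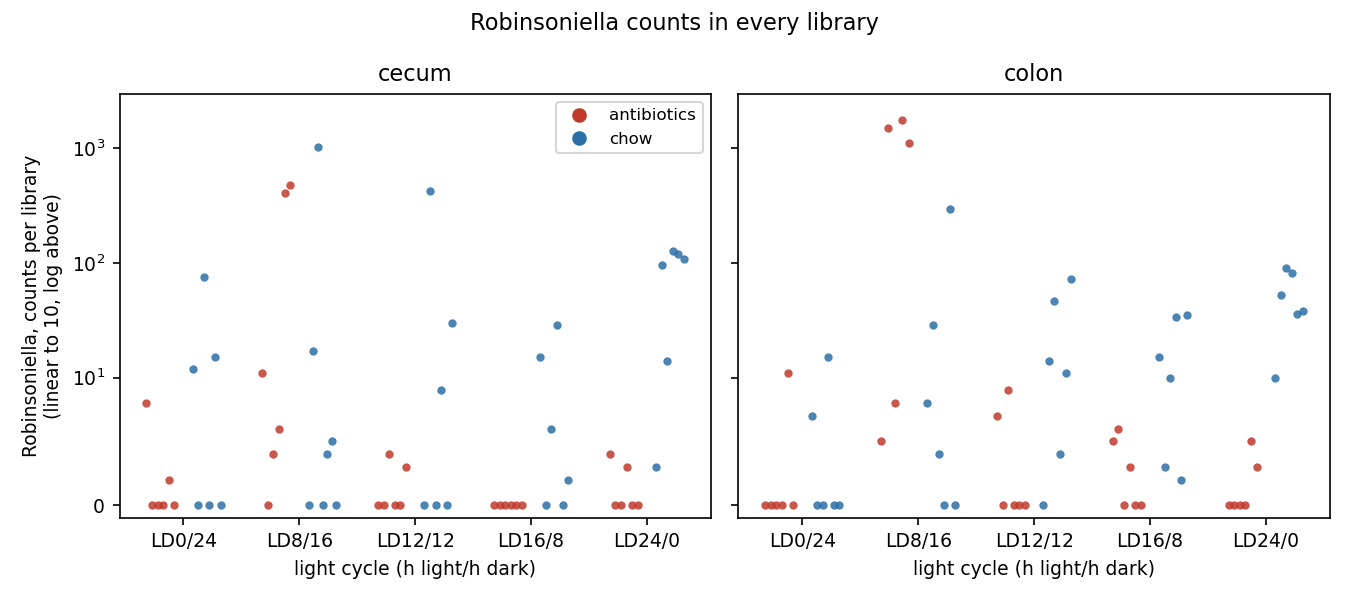
Robinsoniella counts in every library, by light cycle, for the cecum (left) and the colon (right), with antibiotics left of chow; the axis is linear up to 10 counts and logarithmic above. With antibiotics, 2 cecum and 3 colon libraries of LD8/16 hold 407 to 1755 counts and the other 54 hold at most 11. On chow, the highest counts are 1024 in the cecum and 293 in the colon, both in single libraries of LD8/16, and lower counts occur at every light cycle.

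The comparison of diets gave Robinsoniella no single direction. It averaged 0.0472 ± 0.171% in the antibiotics cecum and 0.110 ± 0.309% in the chow cecum (SD), with a fitted log2 fold change of -4.24 ± 1.02 (SE, adjusted p = 0.000110 by edgeR). In the colon it averaged 0.248 ± 0.745% with antibiotics and 0.0504 ± 0.0902% on chow (SD), yet the fit, which has light cycle as a factor, gave -2.09 ± 0.91 (SE, adjusted p = 0.0318). That value became 0.01 with TMMwsp factors, 0.04 on centred log-ratios and 1.25 when the library size left out the 6 expanded genera. The first variant alone was counted in 11 of 30 antibiotics cecum libraries (807 counts) and in 0 of 31 chow cecum libraries. Most of these counts were in the LD8/16 libraries that held 349 and 413 of them.

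At the level of the family, the light cycles differed past the threshold in the antibiotics colon (any light cycle, adjusted p = 0.000953 by edgeR, with 30.3% of all families past the threshold). The adjusted p was 0.331 in the antibiotics cecum (12.9% of families past it), 0.859 in the chow cecum (22.9%) and 0.824 in the chow colon (26.1%). Whether the light effect differs between these 4 was not tested. In the antibiotics colon the mean shares were 0.431% at LD0/24, 1.71% at LD8/16, 0.327% at LD12/12, 0.379% at LD16/8 and 0.329% at LD24/0. LD8/16 stood apart from LD12/12 by 2.38 ± 0.54 (log2, SE, adjusted p = 0.00411, with 6.58% of families past the threshold), in the libraries that Robinsoniella filled. On chow the means ranged from 9.43% at LD8/16 to 19.2% at LD16/8 in the cecum and from 9.48% at LD0/24 to 19.5% at LD24/0 in the colon. Single chow libraries of the same light cycle varied more than these means, as in the colon at LD24/0 with 6.24% to 55.2%. The Ruminococcaceae differed the other way in the antibiotics colon, by -1.54 ± 0.41 at LD8/16 against LD12/12 (log2, SE, adjusted p = 0.0154).

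In the antibiotics cecum, 8 of 23 genera of the family differed between light cycles, against 17.7% of all genera. DESeq2 called 4 of them. Stricter counts (10 in 10 libraries), which leave fewer genera to test here and below, called 2. In the contrasts of LD0/24, LD8/16, LD16/8 and LD24/0 with LD12/12, 0, 5, 0 and 1 of them were past the threshold by edgeR, against 1.27%, 8.86%, 0% and 7.59% of all genera. At an unadjusted p under 0.05 the numbers were 6, 7, 4 and 7, and over the 4 contrasts DESeq2 called 5 and limma 12. At LD8/16, Roseburia had 13 to 27 counts, Dorea 11 to 18 and Coprococcus 7 to 15 in all 6 libraries, against none in the 6 libraries of LD12/12. They were at least 42.6-fold, 29.4-fold and 22.7-fold higher (adjusted p = 0.0122, 0.0141 and 0.0141 by edgeR). The antibiotics colon at LD8/16 did not show this: Dorea and Coprococcus had no count in its 5 libraries, and Roseburia 2 counts in 1 library. The labels name no batch, and its part in these calls was not tested. In the antibiotics cecum the R. gnavus group ran the other way, with no count in 5 of 6 libraries at LD8/16 (10 counts in the sixth). At LD12/12 it had 62 to 74 counts in every library, and the log2 fold change was -5.25 ± 1.26 (adjusted p = 0.00949 by edgeR). Agathobacter was in 4 of 6 libraries at LD24/0 (at most 21 counts) and in none at LD12/12, at least 23.0-fold higher (adjusted p = 0.0256, and up to 0.0534 with 1 library left out).

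In the antibiotics colon, 6 of 19 genera differed between light cycles, against 32.4% of all genera. DESeq2 and limma called 3 each, stricter counts 2 and the fit with the replicate number as a block 1. In the contrasts of LD0/24, LD8/16, LD16/8 and LD24/0 with LD12/12, 1, 3, 0 and 0 were past the threshold by edgeR, against 13.1%, 8.28%, 0.69% and 17.9% of all genera. At an unadjusted p under 0.05 the numbers were 6, 5, 5 and 2, and over the 4 contrasts DESeq2 called 3, limma 2 and the replicate block 1. Beside Robinsoniella these were the R. gnavus group and Agathobacter, with no count in 5 libraries at LD8/16. At LD12/12 the R. gnavus group was in 5 of 6 libraries with up to 30 counts, so it was at least 29.3-fold lower at LD8/16 (adjusted p = 0.00623 by edgeR). Agathobacter was at least 7.82-fold lower at LD8/16 (adjusted p = 0.0493), and Coprococcus at least 9.82-fold higher at LD0/24 (adjusted p = 0.0469). Both of those calls rest on 28 counts in all and were lost when single libraries were left out, with adjusted p up to 0.124 and 0.0755.

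In the chow colon 10 of 39 genera differed between light cycles, against 22% of all genera, and in the chow cecum 3 of 29, against 15.1%. In the chow colon DESeq2 called 6 and stricter counts 3, and in the chow cecum DESeq2 and limma called 1 each, stricter counts 0 and the replicate block 0. In the chow colon 0, 0, 2 and 3 were past the threshold at LD0/24, LD8/16, LD16/8 and LD24/0 against LD12/12, with 1.79%, 0%, 3.59% and 17.9% of all genera. At an unadjusted p under 0.05 the numbers were 10, 8, 5 and 7, and over the 4 contrasts DESeq2 called 6 and limma 9. Agathobacter had no count at LD16/8 and 11 to 21 counts in all 6 libraries at LD12/12, at least 31.0-fold lower (adjusted p = 0.0499 by edgeR, and up to 0.105 with 1 library left out). The R. gnavus group had no count at LD16/8 and was in 5 of 6 libraries at LD12/12, at least 19.3-fold lower (adjusted p = 0.0360, and up to 0.0796 with 1 library left out). At LD24/0 Hungatella was at least 26.4-fold higher (76 counts in 3 libraries, adjusted p = 0.0160), and Lachnoanaerobaculum and Oribacterium were at least 16.0-fold and 11.8-fold lower (adjusted p = 0.00887 and 0.0107). These rest on 37 to 93 counts each. Lachnoanaerobaculum and Oribacterium are among the mouth-associated members, with no count at LD24/0 and counts in all 6 libraries at LD16/8. The part of the split of mouth-associated genera in these calls was not tested. In the chow cecum no genus of the family passed in any of the 4 contrasts by edgeR, where 0%, 0%, 0% and 3.78% of all genera did. Counted at an unadjusted p under 0.05 they were 4, 1, 3 and 3. Over the 4 contrasts DESeq2 and limma called 0, the fit with TMMwsp factors 1 and the fit with no filter 7.

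Some calls over any light cycle in the chow libraries were lost without 1 library. Tyzzerella in the chow colon (adjusted p = 0.0273 by edgeR) had 2590 counts in replicate 6 of LD8/16, and the adjusted p was 0.479 without it. Lachnospiraceae UCG-006 there (adjusted p = 0.0463) had 2021 counts in replicate 4 of LD16/8, and 0.420 was the value without it. Lachnospiraceae UCG-001 in the chow cecum (adjusted p = 0.0398) had at most 1528 counts and reached 0.0684 when a library of LD0/24 was left out.

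Most of the variants tested were lower with antibiotics. With antibiotics, 140 of 178 Lachnospiraceae variants tested in the cecum were lower and 15 higher, against 71.4% and 23.6% of all variants (95% in either direction). The 15 included variants of the mouth-associated Lachnoanaerobaculum, Oribacterium, Johnsonella and Catonella, and that of Hungatella. They also included the main Robinsoniella variant under antibiotics (log2 4.25 ± 0.75, adjusted p = 2.13e-06 by edgeR), although the fit of its genus there was negative. In the colon 158 of 189 were lower and 2 higher, against 76.9% and 10.2% of all variants (87% in either direction). The 2 were a Coprococcus variant with at most 11 counts and a Dorea variant with at most 9. Between sites, 12 variants were higher and 4 lower in the cecum among 78 tested with antibiotics, against 31.3% and 15.7% of all variants (47% in either direction). On chow 20 were higher and 30 lower among 286 tested, against 9.12% and 17.3% of all (26.4% in either direction). On simulated counts the fit at the level of variants made more false calls than its threshold allows, so these counts are read with caution. They also moved with the tool and with the filter, where stricter counts leave fewer variants to test. The 155 calls between diets in the cecum were 67 with DESeq2, 61 with limma and 48 with stricter counts, and the 160 in the colon were 50, 40 and 52. Between sites, the 16 calls with antibiotics were 3 with DESeq2 and 2 with stricter counts. The 50 on chow were 15 with DESeq2, 13 with limma and 10 with stricter counts. They were 14 when cecum and colon libraries of the same light cycle and replicate number were joined as a block. The labels do not say whether such libraries share a mouse.

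Several variants were abundant in single chow libraries only. An unclassified Lachnospiraceae variant had 15219 counts, 22.5% of the library, in the chow cecum at LD0/24 replicate 1, and was counted in only 5 more libraries, all of the chow cecum. An NK4A136 variant had 11970 counts (18.3%) in the chow cecum at LD16/8 replicate 1, against a median of 19 in the 19 chow cecum libraries that held it. Another NK4A136 variant had 9572 counts (16.0%) in the chow colon at LD24/0 replicate 3, and 12 to 92 counts in the 11 antibiotics libraries that held it. Most of the variants most widespread under antibiotics had low counts instead. An NK4A136 variant was in 40 of the 59 antibiotics libraries with 6 to 54 counts. The R. gnavus variant was in 39 of them with 6 to 83 counts. An Agathobacter variant was in 24 of them with 4 to 21 counts, and a further NK4A136 variant in 22 with 10 to 44. The main Robinsoniella variant under antibiotics was the exception, in 23 of them with 2 to 1429 counts.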

How the data were processed

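DNA from cecal and colonic contents was amplified for the 16S rRNA gene and sequenced on the Pacific Biosciences platform, per the labels' protocols; the same text calls the source rumen digesta. The authors deposited a table of whole-number counts per sequence variant and library with a taxonomy of each variant. For the primers, denoiser, filters and reference database, nothing is given in the sources used here. Counts were summed by genus and family under the deposited names (Python 3.11.15, pandas 2.3.3), and 20 groups of site, diet and light cycle were formed from the labels. The 629 variants with no taxon name stayed in the totals.

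Each comparison was fitted at the level of all families, genera or variants with edgeR 4.0.16 (R 4.3.3), using the robust quasi-likelihood test, library sizes equal to the total counts, without a composition factor. A feature needed 3 counts in 5 of the libraries compared. Diet was tested within site and site within diet, with light cycle as a factor, and light cycle within site and diet. P-values were adjusted by Benjamini-Hochberg over all features of the level, and a call is an adjusted p under 0.05. The SE is the log2 fold change divided by the square root of F. The fits were tested on simulated data. Alternatives were TMMwsp factors, DESeq2 1.42.0, limma 3.58.1 on centred log-ratios with 0.5 added, 10 counts in 10 libraries, no filter, blocks, library sizes without 6 expanded genera and, for light cycles only, leaving out single libraries. Removal of low shared counts and equal weighting of groups were added after seeing the data.

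Named genera had a mean share of at least 0.1% in a combination of site and diet. Further named were the 5 with the largest change per direction in each diet comparison and the 3 in each site comparison with a mean of 0.01%, those called for light with 0.05%, and members of the lists. Named variants were the 5 highest by mean share per combination and the 5 counted in most antibiotics libraries. The members and lists were chosen with earlier results of these data known.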

Additional observations from a re-analysis of the deposited data

Results flagged for a closer look

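Robinsoniella stood apart in single libraries. The gap of the highest library to the next was beyond Dixon's 95% critical value in 6 of 59 tests over light cycle groups, for the family share, the variant number and the Robinsoniella share. All 6 were of Robinsoniella. Chance flags about 1 in 20 groups, a rate that need not hold for Robinsoniella, which had no count in many libraries. In the chow cecum, replicate 3 of LD0/24 had 0.120% Robinsoniella (the others at most 0.0248%), replicate 3 of LD8/16 had 1.61% (the others at most 0.0254%) and replicate 2 of LD12/12 had 0.691% (the others at most 0.0508%). In the chow colon, replicate 5 of LD8/16 had 0.471% (the others at most 0.0480%). With antibiotics, replicate 1 of LD0/24 had 0.0114% in the cecum (the others at most 0.00310%) and replicate 5 of LD0/24 had 0.0188% in the colon (the others 0), on 8 and 11 counts. The cause was not tested.

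The antibiotics effect differed between cecum and colon, by the interaction term in edgeR, for 12 of 45 of the family's genera (42.5% of all 325 genera), 8 more positive in the cecum and 4 more negative. With TMMwsp factors the split was 7 and 11. On the log2 scale, cecum minus colon, the difference was 12.42 for Lachnoanaerobaculum, 10.23 for Oribacterium, 7.26 for Johnsonella, 7.10 for Catonella and 3.59 for Stomatobaculum (-0.17 on centred log-ratios). It was 9.11 for Hungatella, 4.16 for Kineothrix, 3.95 for the Ruminococcus gnavus group, -0.61 for Fusicatenibacter, -1.99 for Murimonas, -2.84 for A2 and -4.20 for Anaerostipes. Most of these genera have no count in 1 or more of the 4 combinations of site and diet, and their sizes then depend on the prior count. The first 5 are the genera known from the mouth. The summed share of Neisseria, Haemophilus, Leptotrichia and Veillonella averaged 0.989% in the antibiotics cecum and 0.000818% in the antibiotics colon, against 0.0108% in the chow cecum and 0.832% in the chow colon. The part of that pattern in the differences was not tested.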

How the results depend on the processing

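The family's log2 fold change of antibiotics over chow kept its direction and call under the 9 alternatives run for it, with -5.57 to -1.58 in the cecum and -5.63 to -1.46 in the colon. The counts of calls moved more. With DESeq2 and with equal weighting of groups, 22 and 22 of 40 genera were called between diets in the colon. Stricter counts (10 in 10 libraries) leave fewer features to test, here 23 genera, of which 21 were called. Variants called there were 50 with DESeq2, 52 with stricter counts, 76 with equal weighting, 40 with limma and 512 with no filter. In the cecum they were 67, 48, 68, 61 and 540 in that order. Cecum against colon, the family came to 0.98 (DESeq2) and 1.07 (limma) on chow, and to -0.76 (TMMwsp), -0.53 and -0.66 with antibiotics. On chow 5 of the 27 genera left by strict counts and 6 genera with equal weighting were called. Variants called on chow were 15 (DESeq2), 13 (limma), 10 (strict), 140 (no filter), 14 (block of light cycle and replicate number) and 26 (equal). With antibiotics these were 3 of 8 genera (strict) and 3 (DESeq2), 2 (strict), 40 (no filter) and 7 (equal) variants. The interaction was called for 7 of the 29 genera left by strict counts.

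For any light cycle, genera called were 3 (DESeq2), 3 (limma), 2 (strict) and 1 (replicate block) in the antibiotics colon, and 4 (DESeq2) and 2 (strict) in the antibiotics cecum. In the chow colon they were 6 (DESeq2), 3 (strict) and 18 (no filter), and in the chow cecum 1 (DESeq2), 1 (limma), 0 (strict), 18 (no filter), 0 (replicate block) and 1 (low shared counts removed). Calls against LD12/12 were 2 (TMMwsp, limma, strict and no filter, each) and 1 (replicate block) in the antibiotics colon, 12 (limma), 2 (strict) and 10 (no filter) in the antibiotics cecum, 9, 3 and 8 in the chow colon, and 1 (TMMwsp) and 7 (no filter) in the chow cecum.

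Leaving out 1 library at a time, the family's adjusted p over light cycles (edgeR) was 0.188 to 0.675 in the antibiotics cecum, 7.43e-05 to 0.00864 in the antibiotics colon, 0.692 to 0.943 in the chow cecum and 0.711 to 0.912 in the chow colon. Genera called were 7 to 8, 4 to 6, 1 to 5 and 5 to 11 in that order, and calls against LD12/12 were 5 to 8, 2 to 4, 0 to 1 and 3 to 8. Robinsoniella at LD8/16 was 6.07 to 7.74 in the cecum and 7.83 to 9.17 in the colon. Without low shared counts, variants per library averaged 12.4 and 10.3 in the antibiotics cecum and colon, against 104 and 103 in the chow cecum and colon. In draws of 100 family counts they averaged 19.2 and 17.5 with antibiotics, against 33.9 and 36.2 on chow.

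Among the genera, signs turned for 14 of 36 in the colon with limma. Among them were A2 (0.024), Anaerostipes (0.41), Dorea (0.79), Catonella (0.52), Fusicatenibacter (0.42) and Lachnospira (0.66). In the antibiotics colon A2 had 4 counts and Catonella 0, against 131 and 47 in the chow colon. With limma a count of 0 enters as 0.5 set against the library's own mean over genera. The colon sign of Robinsoniella turned with TMMwsp (0.013), limma (0.042) and the library size without expanded genera (1.25). With that library size Lachnospira (0.84) and Marvinbryantia (0.12) turned in the colon, and Dorea (1.05) and Blautia (0.77) in the cecum. The cause was not tested further.

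Same-numbered libraries were no more alike by their median than others. Their correlations ran from -0.227 to 0.223 between diets and from -0.35 to 0.602 between sites, with medians of -0.0125 and 0.00911. Those of libraries with different numbers ran from -0.311 to 0.399 and from -0.454 to 0.539, with medians of -0.00118 and -0.0189. Such correlations cannot settle whether a cecum and a colon library share a mouse. With the replicate block 22 of 27 results kept their direction and side of the threshold or, for counts, came within 1.5 times. With the block of light cycle and replicate number 5 of 6 did. Robinsoniella at LD8/16 was 5.88 in the cecum and 7.45 in the colon with the replicate block, past no threshold.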
